A study of Mus musculus with 6 samples.

Results

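The genes described are 10 that build or power the contractile machinery of striated muscle: Myh3, Myl1, Mylpf, Actc1, Acta1, Tnni1, Ttn, Csrp3, Des and Ckm. Their transcripts were measured in medullary epithelial cells of the thymus, sorted by flow cytometry as CD45- Ly51int cells with high class II MHC. All donors were (B6xNOD)F1 mice aged 4 to 6 weeks. The 3 control mice were labelled Aire WT and the other 3 Aire KO (Aire-/-), and each mouse gave RNA for 1 array. The 10 genes were chosen by name as sarcomere and muscle genes, with earlier results of these data known. They are among 19938 genes that a probe set names without ambiguity. Each of the 10 has 1 such probe set, so no choice between probe sets was needed. A gene was tested when its log2 intensity exceeded 5.97 on at least 3 arrays, a filter set at the 40th percentile of the table. By that rule 9 of the 10 were tested and Myl1 was too dim.

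In striated muscle, myosin motors on thick filaments pull on thin filaments of actin, which troponin and tropomyosin switch on when calcium rises. Titin spans the sarcomere as a spring, the Z-disc anchors the thin filaments, desmin filaments tie neighbouring Z-discs together, and creatine kinase buffers ATP. Medullary epithelial cells of the thymus express proteins of many other organs, in part through the transcriptional regulator Aire, and display them to developing T cells. The thymic medulla also holds rare muscle-like cells called myoid cells, and muscle proteins such as the acetylcholine receptor and titin are autoantibody targets in myasthenia gravis.

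The 6 arrays were alike in overall signal, with median intensities between 92.9 and 98.2, and correlations of log2 intensity across probe sets of 0.990 to 0.993 within groups and 0.976 to 0.985 between them. Aire itself was 0.44 higher on the log2 scale on the arrays labelled KO (adjusted p = 0.0017 by limma). Since the deleted part of Aire is not named in the labels, that signal does not check the genotype, and KO below is the label. All 10 listed markers of medullary epithelium, among them Epcam and Fezf2, were above the intensity filter on all arrays. Of these 10, 3 fell and 0 rose by limma (2 were higher at an unadjusted p under 0.05), beside 14.1% and 12.0% of all tested genes. Krt5 fell by 0.84, Krt14 by 0.44 and Epcam by 0.37. Krt14 lost its call without KO replicate 1 (adjusted p = 0.057) or 2 (0.052), and Epcam without WT replicate 3 (0.058) or KO replicate 1 (0.092) or 3 (0.060). In a sorted population, fewer cells that make a transcript and less of it per cell cannot be told apart.

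Promoter sequences are shown for the 5 genes that changed and for Acta1, the actin gene set against Actc1 below. They are the 250 bases before the annotated start in RefSeq on GRCm38.p6, written 5′ to 3′ on the strand of the gene. Where a gene has several annotated starts, the outermost is shown. Myh3 lies at chr11:67078050-67078299 on the plus strand, Tnni1 at chr1:135799171-135799420 on the plus strand and Des at chr1:75360042-75360291 on the plus strand. Actc1 lies at chr2:114052876-114053125, Ttn at chr2:76982548-76982797 and Acta1 at chr8:123894776-123895025, all 3 on the minus strand. Capitals mark matches on either strand to the E-box CANNTG (bound by the MyoD family), to TATAAA, to CATTCC (the core of the M-CAT element), to the MEF2 site and to the CArG box (bound by serum response factor). No matched base belonged to more than 1 motif.
Myh3: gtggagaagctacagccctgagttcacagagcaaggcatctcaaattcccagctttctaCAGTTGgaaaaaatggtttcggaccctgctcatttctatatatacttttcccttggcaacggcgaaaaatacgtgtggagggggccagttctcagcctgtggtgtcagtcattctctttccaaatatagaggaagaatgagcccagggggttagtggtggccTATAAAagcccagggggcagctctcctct
Actc1: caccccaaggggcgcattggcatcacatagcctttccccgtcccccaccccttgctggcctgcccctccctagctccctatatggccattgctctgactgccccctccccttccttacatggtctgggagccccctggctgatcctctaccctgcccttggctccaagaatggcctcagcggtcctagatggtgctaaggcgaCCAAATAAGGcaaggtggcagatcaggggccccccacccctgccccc
Tnni1: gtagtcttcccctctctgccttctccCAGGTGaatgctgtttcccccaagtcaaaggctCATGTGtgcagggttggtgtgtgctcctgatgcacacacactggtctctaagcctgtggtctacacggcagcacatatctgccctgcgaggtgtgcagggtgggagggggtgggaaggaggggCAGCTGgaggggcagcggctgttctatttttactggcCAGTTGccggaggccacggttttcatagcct
Ttn: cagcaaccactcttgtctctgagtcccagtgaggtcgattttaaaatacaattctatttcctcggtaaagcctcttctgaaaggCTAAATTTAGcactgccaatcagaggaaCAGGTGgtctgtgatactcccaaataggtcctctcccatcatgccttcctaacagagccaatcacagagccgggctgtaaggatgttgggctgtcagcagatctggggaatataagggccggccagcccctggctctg
Des: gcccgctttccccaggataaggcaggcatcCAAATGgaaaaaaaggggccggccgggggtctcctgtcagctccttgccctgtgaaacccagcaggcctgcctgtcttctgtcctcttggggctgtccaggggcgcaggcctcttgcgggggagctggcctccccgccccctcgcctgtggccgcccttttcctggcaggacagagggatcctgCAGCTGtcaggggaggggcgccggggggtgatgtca
Acta1: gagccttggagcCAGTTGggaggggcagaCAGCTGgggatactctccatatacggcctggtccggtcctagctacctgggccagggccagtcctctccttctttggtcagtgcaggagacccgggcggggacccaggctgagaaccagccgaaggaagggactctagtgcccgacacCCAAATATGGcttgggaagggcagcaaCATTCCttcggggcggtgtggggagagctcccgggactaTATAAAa

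An E-box stood in 9 of the 10 members' windows, all but that of Actc1, and in 66.2% of 32851 RefSeq promoter windows of the same length. Tnni1 had 4 E-boxes, the nearest beginning 31 bases before the start, and Des had 2, at 36 and 220 bases. The CArG box occurred in 2 of 10, the 2 actin genes, at 47 bases before the start in Actc1 and 73 in Acta1, against 1.47% of all windows. The MEF2 site occurred in Ttn alone, at 166 bases, against 2.92% of all windows. TATAAA stood in Myh3 (29 bases before the start), Acta1 (7 bases) and Myl1 (95 bases, on the opposite strand), and in 12.4% of all windows. CATTCC stood in Acta1 and Myl1, and in 12.6% of all windows. These matches are letters in a window: the Des window, of the gene that rose, and the Tnni1 window, of a gene that fell, held only E-boxes of the motifs searched.

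Of the 9 tested muscle structural genes, Myh3, Actc1, Tnni1 and Ttn fell in the mice labelled KO, Des rose, and Acta1, Mylpf, Ckm and Csrp3 did not pass the test. The falls ran from 3.01-fold (Myh3) to 1.29-fold (Ttn), and Des rose 2.18-fold. Among all 13925 tested genes, 26.1% were called by the same test, 14.1% as lower and 12.0% as higher (limma, Benjamini-Hochberg adjusted over all tested genes, threshold 0.05). The members' shares were 44.4% and 11.1%, which are 4 and 1 of 9 genes. Myh3 passed the filter on WT arrays alone, so in these counts and in those of group overlap it could stand only as lower. The median log2 change was -0.26 over all 10 members and -0.27 over the 9 tested, against 0.04 over all genes and 0.02 over all tested genes. Groups did not overlap for 7 of the 9, with KO below WT in 5 and above it in 2, while 42.4% of all tested genes had groups apart, 20.5% with KO below and 22.0% with KO above. The samples are 3 mice per group, and that number limits the precision.

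**Figure D1:**
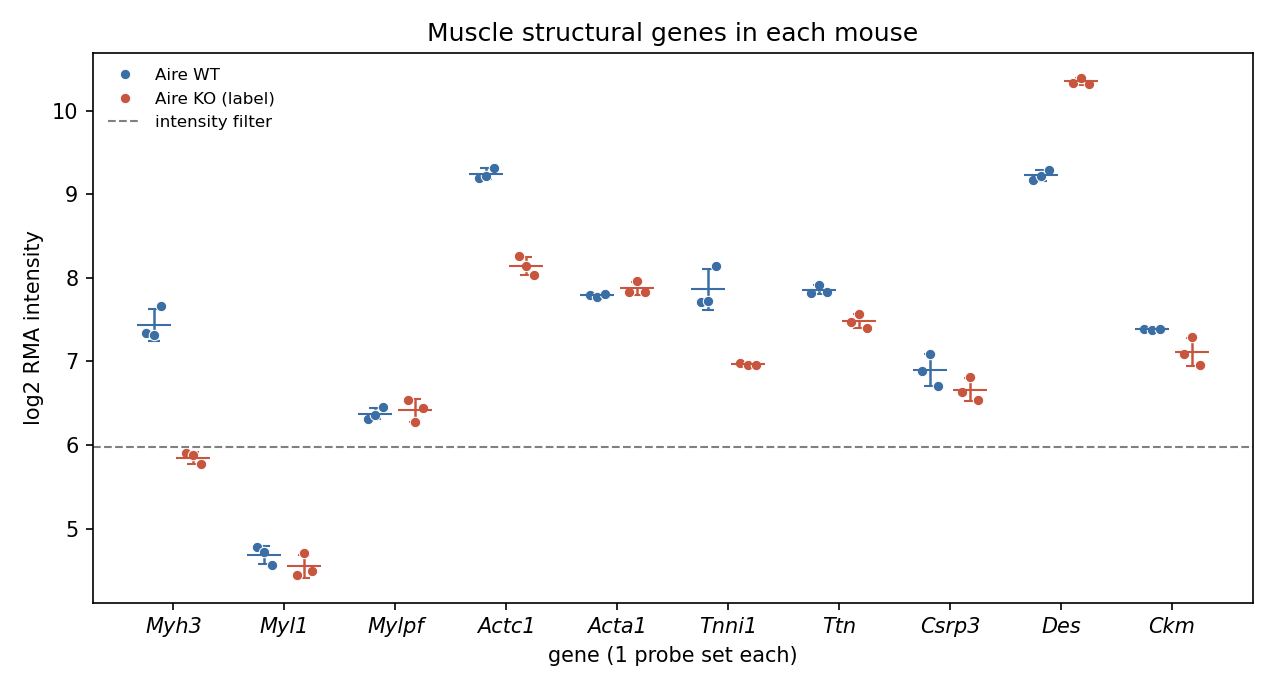
Log2 RMA intensity (vertical axis) of the 10 muscle structural genes (horizontal axis), 1 point per mouse, with the mean as a long dash and the SD as a bar, for 3 Aire WT and 3 Aire KO mice. The dashed line is the intensity filter at 5.97: the 3 KO points of Myh3 and all points of Myl1 lie under it, and Des is the gene whose KO points (10.32 to 10.39) lie well above its WT points (9.17 to 9.29).

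Myh3, the myosin heavy chain of embryonic muscle, is measured by probe set 10377018. Its log2 intensity was 7.34, 7.32 and 7.66 in the WT mice and 5.90, 5.88 and 5.77 in the KO mice. All 3 KO arrays lay under the filter and 1.41 below the lowest WT array, and WT replicate 3 was the highest. The log2 change was -1.59 (SE 0.10, limma adjusted p = 8.8e-07), and 0.804% of tested genes fell by more. The 3.01-fold difference rests on dim signal in KO, and a gene that passed the filter on WT arrays alone had to be lower in KO. With an offset of 32 on the intensities the change was -1.20, still called.

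The other 2 myosin subunits gave no call. Myl1, an alkali light chain of fast muscle, stayed at 4.78, 4.72 and 4.57 in WT and 4.45, 4.71 and 4.50 in KO, under the filter on every array. Without the filter its change was -0.14 (limma adjusted p = 0.34). Mylpf, the regulatory light chain of fast muscle, gave 6.31, 6.36 and 6.45 in WT and 6.54, 6.27 and 6.44 in KO. These groups overlap, and the change was 0.04 with a 95% interval from -0.16 to 0.24 (adjusted p = 0.78). Its sign turned without KO replicate 1, where it was -0.0203.

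The actin genes moved unequally. Actc1, the actin of heart and of developing skeletal muscle (probe set 10485982), gave 9.20, 9.21 and 9.32 in WT and 8.26, 8.14 and 8.04 in KO. The groups were 0.94 apart, several times the spread within either, and the change was -1.10 (SE 0.09, limma adjusted p = 4.2e-06), a 2.14-fold fall. Acta1, the main actin of adult skeletal muscle (probe set 10582592), gave 7.80, 7.77 and 7.81 in WT and 7.83, 7.97 and 7.83 in KO. Its groups did not overlap by a margin of 0.02, and the change of 0.08 was not called (adjusted p = 0.48, 95% interval -0.09 to 0.26). The log2 ratio of Actc1 to Acta1 within an array lay between 1.40 and 1.51 in WT and between 0.17 and 0.43 in KO. This ratio and that of the troponin genes below were picked after their values were seen and are given as descriptions, with no test. These actins have closely similar coding sequences, and how much their probes share was not tested.

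Tnni1, the troponin I of slow muscle (probe set 10350149), gave 7.71, 7.72 and 8.15 in WT and 6.98, 6.96 and 6.96 in KO. The KO mice were nearly identical, with an SD of 0.01, while WT replicate 3 stood above the other WT mice. The change was -0.89 (SE 0.11, limma adjusted p = 0.00017), a 1.86-fold fall, and it was -0.75 without WT replicate 3 (adjusted p = 0.00012). Tnni2, the fast muscle troponin I, was at 0.09 and not called. The within-array log2 ratio of Tnni1 to Tnni2 was 0.19 to 1.06 in WT and -0.51 to -0.33 in KO.

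Ttn, the giant spring protein titin (probe set 10483871), gave 7.82, 7.92 and 7.83 in WT and 7.48, 7.57 and 7.40 in KO. All KO mice lay below all WT mice, by a gap of 0.24. The change of -0.37 (SE 0.08, limma adjusted p = 0.0071) was the least of the 4 falls, number 1400 in order of fall among 13925 tested genes. Across the fits that leave out an array the change of Ttn ran from -0.41 to -0.33, called in each.

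Des and Csrp3 belong to the Z-disc and its surroundings. Des, the muscle intermediate filament protein desmin (probe set 10347583), gave 9.17, 9.22 and 9.29 in WT and 10.33, 10.39 and 10.32 in KO. The lowest KO mouse stood 1.03 above the highest WT mouse. The change was 1.12 (SE 0.08, limma adjusted p = 1.7e-06), and 0.338% of tested genes rose by more. Csrp3, the muscle LIM protein of the Z-disc, gave 6.89, 7.09 and 6.71 in WT and 6.63, 6.81 and 6.54 in KO. Its groups overlap and the change of -0.24 was not called (adjusted p = 0.14, 95% interval -0.48 to 0.01). It was called without WT replicate 3 (-0.33, adjusted p = 0.048) and with array weights (-0.32, adjusted p = 0.022).

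Ckm, the muscle creatine kinase (probe set 10550698), gave 7.39, 7.38 and 7.38 in WT and 7.08, 7.29 and 6.95 in KO. The WT mice hardly differed (SD 0.01) and the KO mice did (SD 0.17), yet all KO values lay below WT, by a gap of 0.09. The change of -0.27 fell just short of the threshold (SE 0.10, limma adjusted p = 0.054, unadjusted 95% interval -0.48 to -0.07). It passed without KO replicate 2 (-0.37, adjusted p = 0.018), with array weights (-0.32, 0.016), with the stricter filter (0.044) and with another quantile normalization (0.048), and in the other alternatives its adjusted p was up to 0.21.

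**Figure D2:**
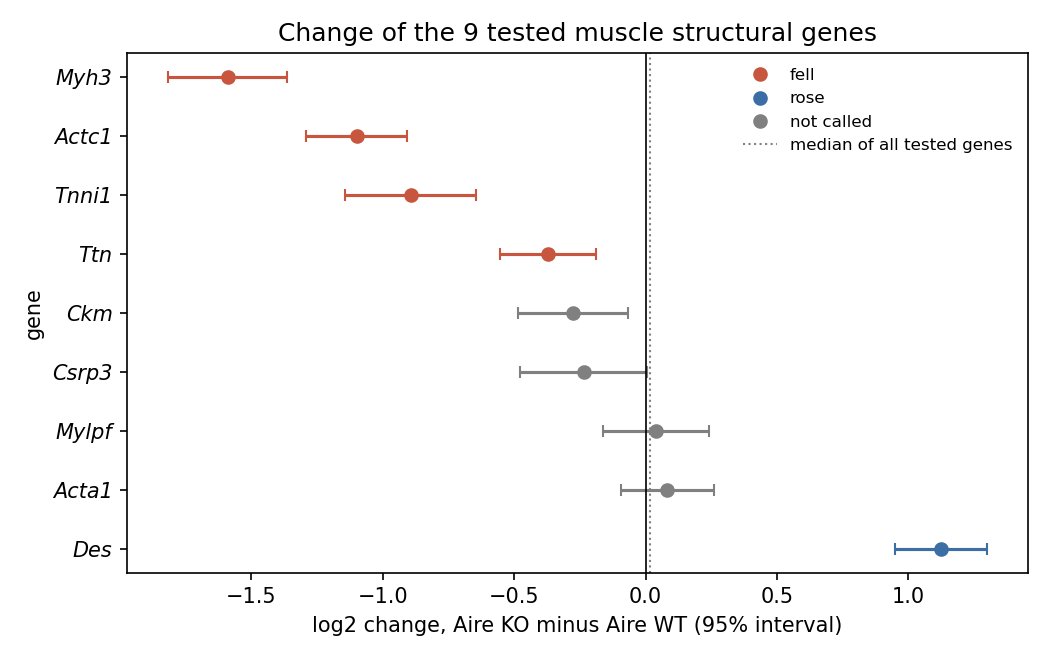
Log2 change, Aire KO minus Aire WT (horizontal axis), of the 9 tested muscle structural genes (vertical axis), with 95% intervals from limma that are not adjusted for the number of genes; colours give the call. Intervals of the 4 genes that fell and of Des exclude 0, that of Ckm does too without passing adjustment, and the dotted line marks the median of all tested genes at 0.02.

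Myh3 sits in a cluster of 6 sarcomeric myosin heavy chain genes on chromosome 11, in the order Myh3, Myh2, Myh1, Myh4, Myh8, Myh13 in the RefSeq table. At one end Myh3 fell, and towards the other end Myh8, the perinatal heavy chain, fell from 6.47 ± 0.18 to 5.69 ± 0.14 (SD, n = 3; limma adjusted p = 0.00031). Myh13, which was too dim to test, went from 6.05 ± 0.21 to 5.63 ± 0.14 with groups that did not overlap. Between them, the fast adult chains Myh2 (5.36 ± 0.06 and 5.42 ± 0.05) and Myh1 (5.22 ± 0.06 and 5.32 ± 0.28) were too dim to test, and Myh4 (7.11 ± 0.03 and 6.96 ± 0.14) was not called. Myh8 passed the filter on WT arrays alone. These genes are alike in sequence, and sharing of signal between their probe sets was not tested.

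The nearest tested gene on either side of each of the 5 changed members made 10 neighbours, of which 2 fell and 0 rose by limma (Lad1 alone was higher at an unadjusted p under 0.05), beside 14.1% and 12.0% of all tested genes. Arhgap11a, beside Actc1, went from 8.42 ± 0.18 to 7.73 ± 0.25, and Ccdc141, beside Ttn, from 6.99 ± 0.06 to 6.43 ± 0.13 (SD, n = 3). Around Des, Dnpep was at 0.10 and Speg, a kinase gene of striated muscle, at 0.04, neither called. Sco1 beside Myh3 (0.18), Aqr beside Actc1 (-0.21), Phlda3 (0.02) and Lad1 (0.22) beside Tnni1, and Plekha3 beside Ttn (0.015) were not called. Lad1 was called without WT replicate 3 (0.32, adjusted p = 0.020) and with array weights (0.28, adjusted p = 0.023).

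A wider set of 83 muscle genes in 7 roles shows how the rest of the programme stood. Of the 54 that were tested, 11 fell and 5 rose, shares of 20.4% and 9.26% beside 14.1% and 12.0% of all tested genes. The median change was -0.05. Another 27 were too dim to test and 2 had no probe set of their own. The count that fell was 8 without KO replicate 3, at most 12 in the other fits without an array, and 3 of 24 with the filter at the 60th percentile, which leaves fewer genes in the test. Cox6a2 was called as higher without WT replicate 1 (adjusted p = 0.040) and Pvalb as lower without WT replicate 3 (0.040).

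**Figure D3:**
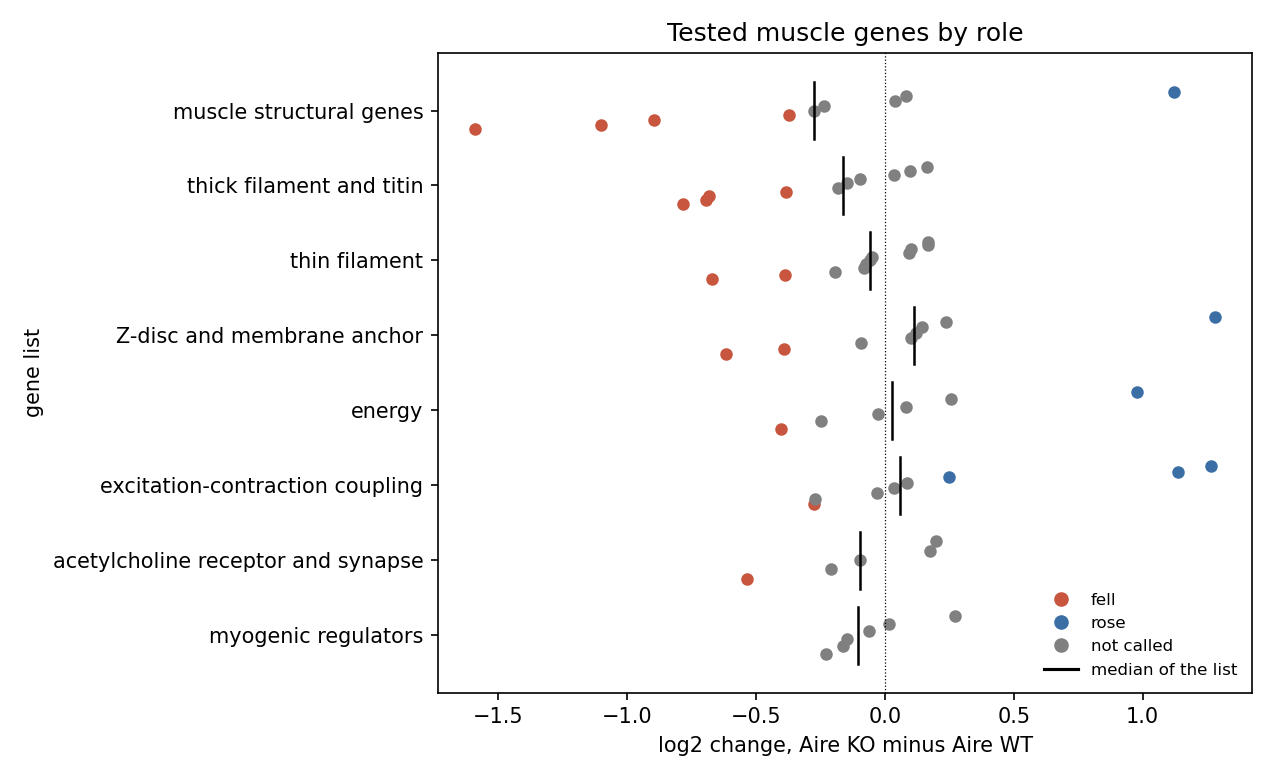
Log2 change, Aire KO minus Aire WT (horizontal axis), of each tested muscle gene, 1 point per gene, by role (vertical axis), coloured by call, with the median of each list as a bar. The row labelled thick filament and titin, which includes Neb and not Ttn, holds 4 called falls among 10 tested genes and 0 rises. The rises above 0.9 lie in the structural, Z-disc, energy and excitation-contraction rows.

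Among the other genes of the thick filament and its giant companions, limma called 4 of 10 tested as lower and 0 as higher. Over all tested genes the shares were 14.1% and 12.0%. At an unadjusted p under 0.05 the counts were the same. Beside Myh8, nebulin (Neb), the ruler of the thin filament, fell from 6.98 ± 0.09 to 6.28 ± 0.18, and Myl4, the light chain of atrial and embryonic muscle, from 6.89 ± 0.10 to 6.21 ± 0.22 (SD, n = 3). Myl3, a ventricular and slow muscle light chain, fell by 0.38. These falls lay near the filter at 5.97, with KO means of 5.69 (Myh8), 5.94 (Myl3), 6.21 (Myl4) and 6.28 (Neb). Myh8 was under it on every KO array, so it could enter the test only as lower. Myl3 was above it on 1 KO array, Myl4 and Neb on all. With the filter at the 60th percentile, 2 genes of the list were tested and 0 fell, too few to judge the list. The brightest of the list, Mybpc1, a myosin-binding protein, was at -0.18 and not called.

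For the thin filament, limma called 2 of 11 tested as lower (18.2%, beside 14.1% of all tested genes) and 0 as higher (beside 12.0%). The counts at an unadjusted p under 0.05 were again the same. Tropomyosin Tpm1 fell from 9.60 ± 0.11 to 8.93 ± 0.18 and the cardiac and slow troponin C gene Tnnc1 from 6.90 ± 0.18 to 6.52 ± 0.08 (SD, n = 3). Tnnc1 lost its call without KO replicate 2 (adjusted p = 0.053) or 3 (0.066). Tpm3, the brightest of the list, was at -0.19 and not called.

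Of 8 tested Z-disc and membrane anchor genes, 2 fell and 1 rose, beside 14.1% and 12.0% of all tested genes. Myotilin (Myot), a Z-disc protein, rose 2.43-fold from 7.80 ± 0.12 to 9.08 ± 0.18 (SD, n = 3; limma adjusted p = 5.2e-06), beside 2.18-fold for Des. The actinin-binding gene Pdlim3 fell by 0.61 and filamin C (Flnc) by 0.39, and Flnc lost its call without KO replicate 3 (adjusted p = 0.064). Actn3, the brightest of the list, was at 0.14 and not called.

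Genes of energy supply and of calcium handling held the other large rises. The muscle phosphofructokinase gene Pfkm rose 1.97-fold from 8.39 ± 0.06 to 9.37 ± 0.13, and the muscle glycogen phosphorylase gene Pygm fell by 0.40. They were the 1 rise and 1 fall of 6 tested energy genes, beside 12.0% and 14.1% of all tested genes. Eno3, the brightest of that list, was at -0.03 and not called. Of 8 tested excitation-contraction genes, 3 rose and 1 fell, beside the same 12.0% and 14.1%. Junctophilin Jph1, which links the surface membrane to the calcium store, rose 2.40-fold from 9.50 ± 0.10 to 10.77 ± 0.15, and phospholamban (Pln), the inhibitor of the calcium pump, 2.20-fold from 7.28 ± 0.28 to 8.42 ± 0.07 (SD, n = 3). The calls of the other 2 were fragile. Jph2, at 0.25, lost its call in each of the 6 fits without an array. The calcium pump gene Atp2a1, at -0.27, was called in 6 of 14 alternatives. It lost its call without WT replicate 1 (adjusted p = 0.17) or KO replicate 1 (0.16), 2 (0.054) or 3 (0.12), and with the replicate number as a block (0.084). The call was also lost without the filter, with the offset of 32 and with trended, robust variances.

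Among the tested genes of the muscle acetylcholine receptor list and of the myogenic regulators, 1 was called. Chrna1, the subunit that carries the main target of myasthenia gravis antibodies, fell from 6.46 ± 0.05 to 5.93 ± 0.13 (SD, n = 3; limma adjusted p = 0.0011). Its KO mean lay under the filter at 5.97, which all WT arrays but only 1 KO array exceeded. Chrna1 was the 1 fall among 5 tested genes of the receptor list, with 0 rises (also 0 at an unadjusted p under 0.05). With the filter at the 60th percentile, 0 genes of that list were tested. Over all tested genes 14.1% fell and 12.0% rose. Chrnb1, the brightest of the list, was at -0.10 and not called. Of the 6 tested myogenic regulators 0 fell and 0 rose by limma, beside the same 14.1% and 12.0%. At an unadjusted p under 0.05 the count was 1, Myog as higher. Myf6, which was too dim to test, went from 5.58 ± 0.11 to 5.07 ± 0.21 (SD, n = 3) with groups that did not overlap. Without the filter, 1 of 10 myogenic regulators was called as lower and 0 as higher. Myog was at 0.27 (adjusted p = 0.077), Myod1 at 0.02 and Mef2a at -0.23. Myog was called without WT replicate 1 (0.39, adjusted p = 0.014), and Myod1 ran from -0.06 to 0.12 in the fits without an array. Of the 6 markers listed for skeletal myoid cells, which include Chrna1, Ckm, Myog and Myod1, 1 fell and 0 rose. The 1 fall is 20.0% of the 5 tested, beside 14.1% of all tested genes, and Actn2 stayed under the filter.

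Desmin is also made by smooth muscle and pericytes, so markers of those cells were set beside it. Of 13, all tested, 5 fell and 1 rose, beside 14.1% and 12.0% of all tested genes. Their median change was -0.22, and their summed intensity was 4512 to 4598 in WT and 3674 to 4042 in KO. Smooth muscle actin Acta2 fell by 0.63 and calponin Cnn1 by 0.60, while the pericyte proteoglycan gene Cspg4 rose by 0.76. Cnn1 and Abcc9, another of the falls, lay near the filter at 5.97, with KO means of 6.07 and 5.91. With the filter at the 60th percentile, 4 genes of the list were tested, of which 3 fell and 0 rose. Abcc9 and Myh11 were the fragile calls among the 5, and the count that fell was 3 without WT replicate 1 or 2 or without KO replicate 2 or 3. Kcnj8, another pericyte marker of the list, was called as higher without WT replicate 1 (0.39, adjusted p = 0.019), which made 2 rises. Fibroblast markers split, with Dcn higher by 0.75 and Col1a1 lower by 0.63 of 5 tested, and of 3 tested endothelial markers 0 were called by limma. Pecam1 was lower at an unadjusted p under 0.05 and was called without WT replicate 2 (adjusted p = 0.041). The part of any of these cells in the Des signal was not tested.

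Among other intermediate filament genes, 2 of 4 tested fell and 0 rose by limma, beside 14.1% and 12.0% of all tested genes. The counts were the same at an unadjusted p under 0.05. Peripherin (Prph), the filament of peripheral neurons, fell 2.46-fold from 8.53 ± 0.08 to 7.23 ± 0.29 (SD, n = 3). Lamin A (Lmna) fell by 0.37 and lost its call without WT replicate 2 (adjusted p = 0.061) or KO replicate 2 (0.059). Vim, which often accompanies desmin, was at -0.02 and Synm, a desmin partner, at 0.04, neither called.

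Within the WT group, Myh3, Actc1 and Tnni1 were highest in the same mouse, as were Des, Acta1 and Mylpf, and Ttn was not. WT replicate 3 gave the highest WT value of 6 of the 9 tested members, and KO replicate 3 the lowest KO value of 7 of 9. Over all tested genes these arrays held those places for 43.6% and 37.7%. Deviations from the group mean in WT replicate 3 were 0.22 for Myh3 and 0.29 for Tnni1. Over the 6 arrays the deviations of these genes had a Pearson correlation of 0.95, the highest positive value of all member pairs. The largest in size was -0.96, between Mylpf and Myl1, which was under the filter on every array. These correlations are given as descriptions of 6 points that share their arrays. Des, which rose, correlated with Myh3 at 0.80 and Tnni1 at 0.79, and Ttn, which fell, at -0.02 and -0.19. Csrp3 deviated the other way in WT replicate 3, by -0.18. Without WT replicate 3 the change of Myh3 was -1.48, still called.

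**Figure D4:**
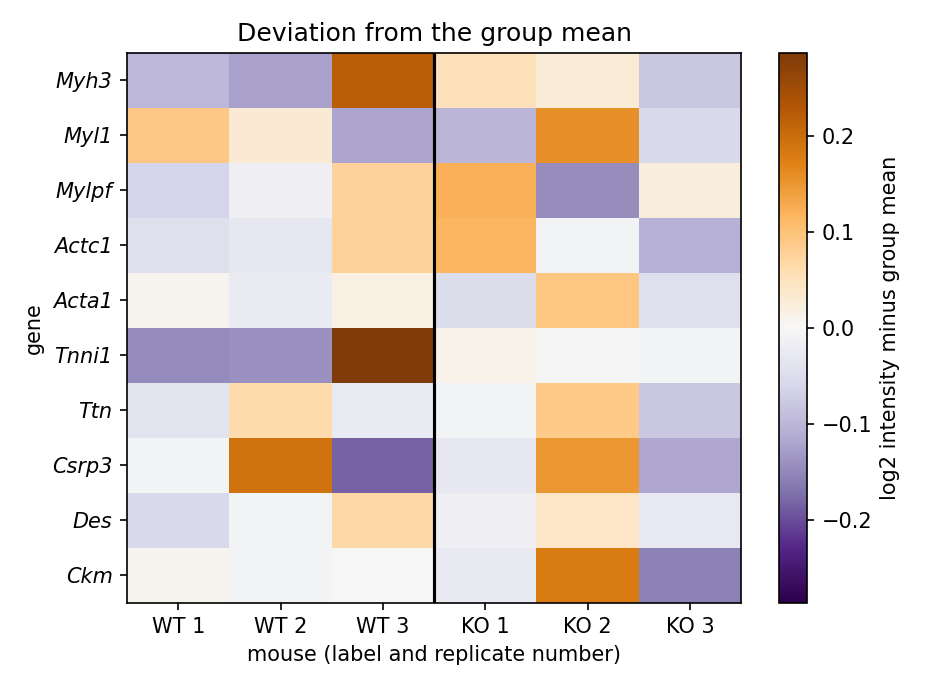
Deviation of log2 intensity from the group mean (colour) for each of the 10 muscle structural genes (rows) in each mouse (columns, WT left and KO right of the line). WT replicate 3 is high for Myh3 (0.22) and Tnni1 (0.29) and low for Csrp3 (-0.18), and KO replicate 2 is high for Ckm (0.18).

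Thymocyte transcripts varied between the same arrays. The summed intensity of 8 T lineage markers was 1055, 989 and 1696 in WT and 832, 957 and 695 in KO, highest in WT replicate 3 and lowest in KO replicate 3. Of 7 tested, 2 fell and 0 rose by limma, also at an unadjusted p under 0.05, beside 14.1% and 12.0% of all tested genes. Cd3g went from 8.51 ± 0.70 to 7.12 ± 0.54 and Ptprc from 7.09 ± 0.35 to 6.47 ± 0.29 (SD, n = 3). Ptprc lost its call without WT replicate 3 (adjusted p = 0.064) or KO replicate 3 (0.093), Rag1 gained one without WT replicate 2 (adjusted p = 0.037), and Cd3g lost its call with trended, robust variances (0.0997). All 3 WT sums lay above all 3 KO sums, and the part of thymocyte RNA in the members' values was not tested. Of 3 tested myeloid markers, Csf1r fell by 0.54 and Cd68 rose by 0.32. The call of Cd68 was lost without WT replicate 1 or 2, without any 1 of the KO arrays, without the filter and with median centring. Both B cell markers with a probe set lay under the filter on all arrays.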

How the data were processed

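RNA from sorted thymic medullary epithelial cells of 6 mice was extracted with Trizol and amplified in 2 rounds, per the labels' protocols. The authors deposited 1 intensity per probe set and array, made with RMA per the submitters' processing notes. Its version and the genome build were not given in the sources used here. No detection call comes with these values. Of 35512 probe sets, 21789 have 1 gene symbol in the platform annotation, 1621 several and 12102 none. Symbols were updated through the RefSeq table of GRCm38.p6, where 21698 matched.

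Intensities were log2 transformed (pseudocount 0). A gene was its 1-symbol probe set of highest mean. Genotypes were compared in R 4.3.3 with limma 3.58.1 (lmFit, then eBayes), two-sided, with Benjamini-Hochberg adjustment over 13925 tested genes and a threshold of 0.05. Members, gene lists, ratios and tests were chosen with earlier results of these data known. Genes named are the members, Aire, up to 3 called genes of each list, the brightest gene of each muscle list, Myog, Myod1, Chrna1 and the neighbours of changed members; other named genes were picked after their values were seen. Of the 10 members, 10 matched the RefSeq promoter table. Alternatives covered the filter, normalization, offset, probe set rule, variance model, array weights, replicate block and each array left out. Labels give no batch.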

Additional observations from a re-analysis of the deposited data

How the results depend on the processing

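Across the alternatives run, Myh3, Actc1, Tnni1 and Ttn remained called as lower and Des as higher in each of 15 fits. The fall count of the members ran from 4 to 6 and the rise count stayed at 1. Of the member values under alternatives, 127 kept direction and side of the threshold, 6 gained a call (Ckm and Csrp3) and 1 turned sign (Mylpf). The median over the tested members lay between -0.37 and -0.20. For all genes, the count that rose was 1052 to 1547 in fits without an array, lowest without KO replicate 1, against 1676 with all arrays. The wider muscle genes that fell numbered 3 with the filter at the 60th percentile, where 24 remained in the test. Signs turned for genes near 0: Mylpf ran from -0.0203 to 0.113, Myod1 from -0.0622 to 0.122, Phlda3 from -0.0270 to 0.0599 and Plekha3 from -0.0665 to 0.0775 in fits without an array, and Myod1 was -0.0249 with array weights. The cause of these shifts was not tested, apart from fewer genes or arrays in the fit.

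Deviations of same-numbered WT and KO mice correlated at -0.0181, -0.209 and -0.0559 across genes. Those of differently numbered mice correlated at -0.0955 to 0.149. With 3 mice per group these values cannot show whether the replicate numbers pair the mice. With the replicate block, 1742 genes fell and 1368 rose, and the members' calls stayed at 4 and 1. No detection call exists, so signal over background limits what can be said of Myh3 in KO, Myl1 and the other dim genes.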
